A study of Homo sapiens with 4 samples.

Results

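The genes of mechanistic target of rapamycin complex 1 (mTORC1) and of its regulators on the lysosome were examined for peaks of RNA polymerase II (Pol II) in SK-OV-3, a long-established line of human ovarian cancer cells. The 10 genes were taken by name and were all found among the 20033 protein-coding genes of the GENCODE annotation of GRCh38 on the primary chromosomes. They were MTOR, RPTOR, MLST8, AKT1S1, DEPTOR, RICTOR, RHEB, RRAGA, RRAGC and LAMTOR1. Each Pol II peak that overlapped one of these genes, or the 2 kb on either side of it, was recorded with its position in GRCh38, counted from 1, its width and the rank of its score.

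The data came from chromatin immunoprecipitation followed by sequencing (ChIP-seq) with an antibody against Pol II. Control cells carried a short hairpin RNA against the bacterial gene LacZ (shLacZ), and knockdown cells carried one against RRN3 (shRRN3), an initiation factor of RNA polymerase I. The study used them to ask how RRN3 influences transcription by Pol II. Each hairpin had 1 Pol II library, with 1 peak list, and 1 input library that was not analysed here, so replicate error is unknown for every value below and no p-value was computed. The lists held 3920 peaks in shLacZ and 14322 in shRRN3 on the primary chromosomes, and counts of members are therefore set beside the share of all protein-coding genes that met the same criterion in the same list. Read depth is unknown from peak lists. The depth and enrichment of a library and the effect of its hairpin cannot be told apart with 1 library each. The loss of RRN3 was not checked here, since Pol II peak lists measure neither its RNA nor its protein. Both lists held 0 peaks at the RRN3 gene.

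mTORC1 is the kinase complex through which cells couple amino acids and growth factors to protein synthesis, ribosome production and the restraint of autophagy. Its kinase mTOR works with the scaffold raptor and the small subunit mLST8, and the same kinase joined to rictor forms a second complex, mTORC2. When amino acids are plentiful, Rag GTPases held on the lysosome by the Ragulator complex bring mTORC1 to the lysosomal surface, where the GTPase Rheb switches it on. In cells starved of nutrients this recruitment is lost, protein synthesis falls and autophagy starts.

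To show the DNA behind the peaks, the 250 bases before the RefSeq start (GRCh38.p14) are given for LAMTOR1, MTOR, RPTOR, RICTOR and RRAGC. A called peak lay over the LAMTOR1 stretch in both lists and over those of MTOR, RPTOR and RICTOR in shRRN3 alone. The RRAGC stretch had no called peak in either list. Each stretch runs 5′ to 3′ on the strand of its gene, and capitals mark exact matches to the words searched.
LAMTOR1 (chr11:72103298-72103547, minus strand): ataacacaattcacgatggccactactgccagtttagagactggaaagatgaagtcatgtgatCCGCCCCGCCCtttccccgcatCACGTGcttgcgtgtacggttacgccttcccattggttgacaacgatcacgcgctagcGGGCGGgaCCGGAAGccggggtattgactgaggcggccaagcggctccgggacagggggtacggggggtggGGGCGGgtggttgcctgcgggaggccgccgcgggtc
MTOR (chr1:11262552-11262801, minus strand): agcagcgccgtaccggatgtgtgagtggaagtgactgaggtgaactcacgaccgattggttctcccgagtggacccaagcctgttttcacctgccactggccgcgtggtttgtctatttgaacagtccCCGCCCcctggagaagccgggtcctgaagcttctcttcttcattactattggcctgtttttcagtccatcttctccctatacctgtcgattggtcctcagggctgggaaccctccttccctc
RPTOR (chr17:80544588-80544837, plus strand): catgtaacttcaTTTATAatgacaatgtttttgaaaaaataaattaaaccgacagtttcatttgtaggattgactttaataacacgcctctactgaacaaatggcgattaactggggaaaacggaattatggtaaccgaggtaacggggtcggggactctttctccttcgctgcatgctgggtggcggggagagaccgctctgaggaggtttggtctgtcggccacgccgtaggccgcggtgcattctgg
RICTOR (chr5:39074400-39074649, minus strand): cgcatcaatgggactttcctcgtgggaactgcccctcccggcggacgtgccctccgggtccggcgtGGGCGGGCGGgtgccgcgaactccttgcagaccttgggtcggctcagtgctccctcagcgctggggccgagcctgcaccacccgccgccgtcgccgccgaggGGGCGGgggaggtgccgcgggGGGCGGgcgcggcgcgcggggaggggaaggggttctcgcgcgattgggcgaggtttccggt
RRAGC (chr1:38859773-38860022, minus strand): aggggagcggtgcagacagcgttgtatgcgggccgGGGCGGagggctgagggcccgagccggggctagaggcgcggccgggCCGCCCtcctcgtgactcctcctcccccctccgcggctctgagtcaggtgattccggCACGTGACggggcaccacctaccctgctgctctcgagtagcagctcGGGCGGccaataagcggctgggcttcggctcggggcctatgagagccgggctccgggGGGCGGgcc

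Peaks covered these stretches unequally. The shLacZ peak lay over 191 of the 250 LAMTOR1 bases, or 76.4%, and the shRRN3 peak over all 250. The MTOR, RPTOR and RICTOR stretches were covered over all 250 bases in shRRN3 and over 0 in shLacZ, and the RRAGC stretch over 0 in both lists.

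The promoters differed widely in base composition. The GC share was 47.2% in RPTOR, 55.6% in MTOR, 63.2% in RHEB, 63.6% in LAMTOR1, 73.6% in RRAGC and 76.0% in RICTOR, against a median of 62.0% over the 21613 promoters of protein-coding genes. RPTOR was thus among the AT-rich promoters, since 17.3% of promoters had a GC share as low. Its ratio of observed to expected CpG was 1.11, the highest of the promoters matched and a value that 96.8% of promoters did not exceed. The ratio was alike in RICTOR (0.988), RHEB (0.967) and LAMTOR1 (0.966), each above the median of 0.715 and at values that 85.6% or more of promoters did not exceed. RRAGC had a ratio of 0.775, and MTOR the lowest, 0.576. In all, 6 of the 10 members were matched in the RefSeq promoter table, and AKT1S1, DEPTOR, MLST8 and RRAGA were not.

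Words bound by common promoter factors were counted in the 250 bases, on both strands and with overlapping matches counted. The SP and KLF word GGGCGG occurred 4 times each in LAMTOR1, RICTOR, RRAGC and RHEB, once in MTOR and not in RPTOR, and 54.2% of the 21613 promoters of protein-coding genes held it. The E-box CACGTG occurred in LAMTOR1, 165 bases before the start, and in RRAGC, 112 bases before it, against 7.38% of these promoters. In RRAGC the E-box stood inside GTCACGTG, the core of the CLEAR element that TFEB and related factors bind in promoters of lysosomal genes, which 2.83% of promoters held. LAMTOR1 also held the ETS word CCGGAAG, present in 10.8% of promoters. RPTOR held the word TATAAA on its reverse strand, 238 bases before the start, and 8.99% of promoters held that word. The words GCGCATGC (NRF1), TGACGTCA (CRE) and AAGATGGC (YY1) occurred in none of the 6 promoters and in 3.28%, 2.04% and 1.37% of the protein-coding promoters. The words did not divide promoters with a peak from those without. RRAGC and LAMTOR1 had the most matches, 6 each with the E-box inside the CLEAR core counted under both words, and RRAGC had no peak where LAMTOR1 had one in both lists.

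Start peaks varied with promoter GC share over all genes, and the members stood in different bands. In the band under 50%, that of RPTOR, 4.47% of genes had a start peak in shLacZ and 13.5% in shRRN3. In the band from 60% to 70%, that of LAMTOR1 and RHEB, the shares were the highest, at 10.8% and 33.3%. From 70% to 80%, where RICTOR and RRAGC stood, they were 9.73% and 30.2%, and from 50% to 60%, where MTOR stood, 8.97% and 28.9%. RPTOR therefore had a shRRN3 start peak in the band where such peaks were rarest, and RHEB had none in the band where they were most common.

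Pol II peaks were recorded at 3 of the 10 genes in shLacZ and at 7 of 10 in shRRN3. In shLacZ they were MLST8, RICTOR and LAMTOR1, and in shRRN3 they were these same 3 with MTOR, RPTOR, AKT1S1 and RRAGA. Over all protein-coding genes, 13.4% had a peak in the gene or 2 kb around it in shLacZ, 36.9% in shRRN3 and 12.0% in both lists. Both member counts were above these shares, and 10 genes are too few for such a distance to be read as a result about the pathway. No gene of the 10 had a peak in shLacZ alone, where 1.40% of all genes did. DEPTOR, RHEB and RRAGC had no recorded peak in either list, which means that none was detectable at the depth and threshold of these lists. The recorded peaks numbered 3 in shLacZ and 13 in shRRN3.

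The start of each gene was examined next, because a long gene catches more peaks by its length alone. Among genes of 100 kb and over, the class of MTOR, RPTOR, DEPTOR and RICTOR, 18.6% had a recorded peak in shLacZ and 48.0% in shRRN3. Among genes under 10 kb, the class of MLST8, AKT1S1 and RRAGA, the shares were 9.28% and 23.2%. With the outer bound of the annotated gene as the transcription start site, a peak midpoint lay within 1 kb of it at 1 member in shLacZ, LAMTOR1, where 7.56% of all genes had one. In shRRN3 there were 6 such members, MTOR, RPTOR, AKT1S1, RICTOR, RRAGA and LAMTOR1, where 23.7% of all genes had one.

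The annotated bound missed MLST8. This gene has 27 annotated transcript starts, and the start of its MANE Select transcript, the reference transcript agreed on by RefSeq and Ensembl, lies 1206 bp inside the bound, so that the MLST8 peaks sat on the reference start and beyond 1 kb of the bound. For AKT1S1 the reference start lies 1104 bp inside, and for the other 8 genes the distance was at most 225 bp. With the MANE Select start, a choice made after the peaks were seen, start peaks were found at 2 members in shLacZ (MLST8 and LAMTOR1) and at 7 in shRRN3. The shares of all genes were then 8.18% and 25.4%, and 6.96% had a start peak in both lists, as MLST8 and LAMTOR1 did. Distances below are from the MANE Select start, with negative values upstream.

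**Figure D1:**
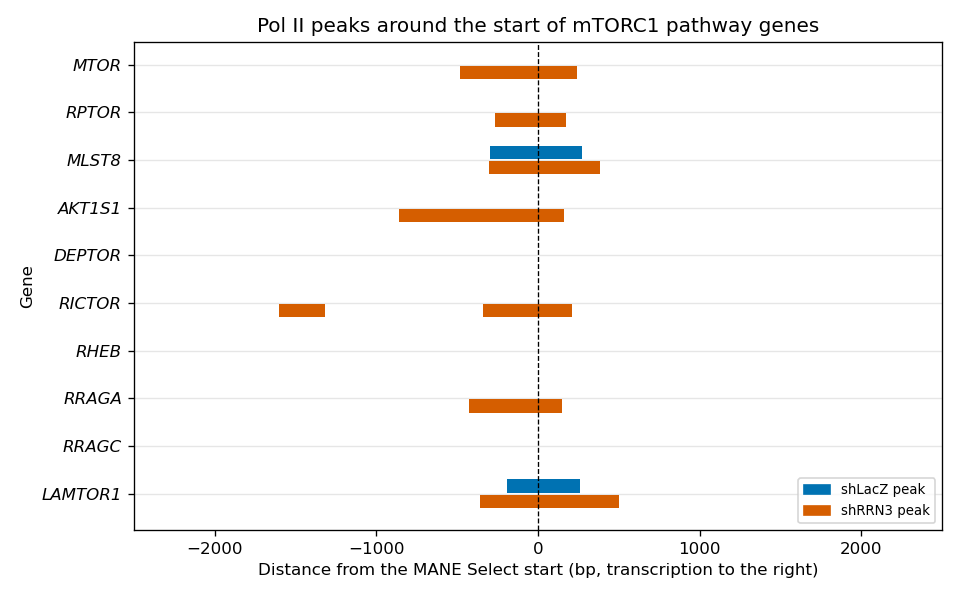
Pol II peaks around the MANE Select start of the 10 genes, drawn as bars from peak start to peak end, with distance in bp on the horizontal axis and transcription running to the right. shLacZ peaks (upper bars) lie over the starts of MLST8 and LAMTOR1, shRRN3 peaks (lower bars) lie over 7 starts, and DEPTOR, RHEB and RRAGC carry none.

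Peak midpoints in shRRN3 lay from -348 bp (AKT1S1) to 75 bp (LAMTOR1), with 5 of the 7 upstream and a median of -64.0 bp. All 5090 genes with a start peak in shRRN3 had a median of -52.0 bp, and 61.7% of their midpoints were upstream. The members' peaks therefore sat where start peaks of this list generally sat. Their widths ran from 436 to 1019 bp with a median of 689 bp, beside a median of 650 bp for all start peaks. Their scores had a median percentile of 78.6 within the list, beside 65.7 for all start peaks, and the members ranged from 3.71 to 92.2.

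Of the subunits of the core complex, MTOR, which encodes the kinase, had a single peak in 156 kb of gene. It was found in shRRN3 over the start (chromosome 1, 11262312 to 11263033), with a width of 722 bp, a score of 122.70, rank 2727 of 14363 and a midpoint at -121 bp. No neighbouring gene had the annotated bound at its start within 1 kb of that midpoint. The shLacZ peak nearest to the MTOR start was 250 kb from it, past the far end of the gene, at TARDBP. The median over all protein-coding genes in that list was 230 kb.

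RPTOR encodes raptor, the scaffold that presents substrates to the kinase, and its transcript was among the autophagy-related messages that the study followed. It is the longest of the 10 genes, at 422 kb on chromosome 17. The start peak in shRRN3 (80544576 to 80545011) was 436 bp wide with its midpoint at -45 bp, and its score of 69.84 ranked 7976 of 14363. A short protein-coding gene model without a symbol (ENSG00000289764), inside RPTOR and on its strand, starts 282 bp past that midpoint. Further shRRN3 peaks lay in introns 216814 bp and 247291 bp past its start. The first of them (80761409 to 80761896, score 97.54, rank 4402) scored above the start peak, and the second (80791969 to 80792289, score 65.59, rank 8868) scored below it. Neither was within 10 kb of an annotated transcript start, the distances being 18365 bp and 13503 bp. Peaks in the body, in exons or introns, were found in many long genes, and 34.5% of genes of 100 kb and over had a shRRN3 peak in the body more than 1 kb from their start. In shLacZ the share was 12.5%, and RPTOR had no peak there, the nearest lying 490 kb from its start.

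MLST8, which encodes the small subunit shared by mTORC1 and mTORC2, carried a start peak in both lists. The shLacZ peak (chromosome 16, 2205157 to 2205730) was 574 bp wide with its midpoint 11 bp before the MANE Select start, and its score of 63.43 ranked 2219 of 4014. The shRRN3 peak (2205151 to 2205839) was 689 bp wide with its midpoint 41 bp past the start, and its score of 50.92 ranked 13827 of 14363. The shLacZ peak lay wholly inside the shRRN3 peak. The positions were thus the same and the ranks were far apart, at percentile 44.7 in shLacZ and 3.71 in shRRN3.

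AKT1S1 encodes PRAS40, a raptor-binding inhibitor of mTORC1 that AKT inactivates. It had the highest-ranked peak of all those recorded (chromosome 19, 49877194 to 49878212), found in shRRN3 with a width of 1019 bp, a score of 183.21 and rank 1124 of 14363. This peak cannot be given to AKT1S1 by position. Its midpoint lay 348 bp upstream of the AKT1S1 start and 1 bp from the MANE Select start of TBC1D17, a gene read in the opposite direction. A second shRRN3 peak lay past the end of AKT1S1, with a score of 89.30 and rank 5167. The other inhibitor on the list, DEPTOR, had no peak in 177 kb of gene on chromosome 8, and both lists had their nearest peak at the neighbouring gene DSCC1, 17.7 kb upstream in shLacZ and 17.6 kb upstream in shRRN3.

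RICTOR encodes the defining subunit of mTORC2 and was the only member with peaks in both lists and none of them shared. The shLacZ peak was intronic, 79.0 kb into the gene (chromosome 5, 38995336 to 38995530), 195 bp wide and near the foot of its list, with a score of 50.89 and rank 3794 of 4014. No shRRN3 peak overlapped it. The shRRN3 list instead had a peak over the start (39074188 to 39074739, score 71.58, rank 7651), with its midpoint at -64 bp. It had another 14298 bp into the gene (39059960 to 39060242, score 77.94, rank 6606) and one more 1458 bp upstream (39075715 to 39075999, score 95.78, rank 4539). The start peak lay between RICTOR and an unnamed long noncoding RNA gene (ENSG00000289196) read in the opposite direction, whose start was 32 bp from the midpoint. The upstream peak lay 288 bp past the end of that noncoding gene and had a GC share of 24.6%, against 72.8% for the start peak. The strongest of the RICTOR peaks by score was therefore not the one at its start.

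The GTPases and their anchor followed no single pattern. RRAGA, which encodes the RagA GTPase in a gene of 1.60 kb, had a shRRN3 peak over its start (chromosome 9, 19049003 to 19049576), 574 bp wide, with a score of 115.92, rank 3074 and its midpoint at -138 bp. The midpoint lay 69 bp from the outer bound of SAXO1, which is read in the opposite direction, so this peak too is shared by a pair of starts. The nearest shLacZ peak was 53.4 kb away at HAUS6. RRAGC, whose product RagC forms the heterodimer with RagA, had no peak in either list, and the nearest ones lay 131 kb away in shLacZ, at AKIRIN1, and 13.6 kb away in shRRN3, at MYCBP and GJA9. RHEB, which encodes the GTPase that activates the kinase, stood farthest from any peak. Its nearest shLacZ peak was 1207 kb away and its nearest shRRN3 peak 73.2 kb away.

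LAMTOR1 encodes the Ragulator subunit that anchors the complex in the lysosomal membrane and was the only member with a start peak in both lists whichever start was used. The shLacZ peak (chromosome 11, 72103039 to 72103488) was 450 bp wide with its midpoint 34 bp past the start, and its score of 76.79 ranked 1465 of 4014. The shRRN3 peak (72102793 to 72103652) was 860 bp wide with its midpoint 75 bp past the start, and its score of 137.97 ranked 2163 of 14363. The shRRN3 peak enclosed the shLacZ peak, which made up 52.3% of its width. Both midpoints lay in an exon of the LAMTOR1 MANE Select transcript and in an intron of LRTOMT. That gene runs through the same DNA on the other strand. No other gene had the annotated bound at its start within 1 kb of these midpoints. A weak shRRN3 peak (72084004 to 72084313, score 50.29, rank 14228) lay 1582 bp past the end of LAMTOR1, in introns of LRTOMT and LRRC51 and 386 bp from an annotated LRRC51 transcript start.

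**Figure D2:**
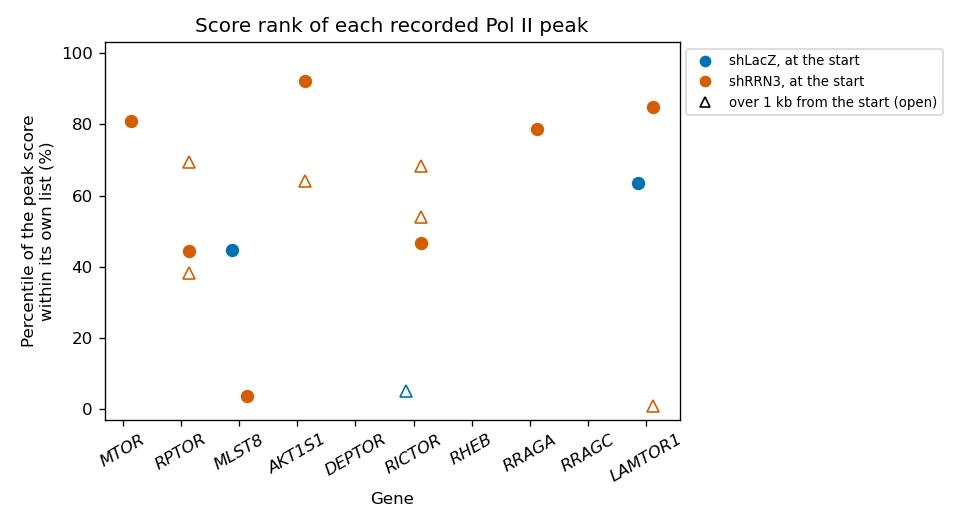
Percentile of the score of each of the 16 recorded peaks within its own list, by gene, with filled circles for peaks within 1 kb of the MANE Select start and open triangles for the others, blue for shLacZ and orange for shRRN3. The shRRN3 start peaks of MTOR, AKT1S1, RRAGA and LAMTOR1 sit between 78.6 and 92.2, those of RPTOR and RICTOR at 44.4 and 46.7, and that of MLST8 at 3.71.

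By score, the shRRN3 start peaks formed an upper group of AKT1S1, LAMTOR1, MTOR and RRAGA at percentiles 92.2, 84.9, 81.0 and 78.6, a middle pair of RICTOR and RPTOR at 46.7 and 44.4, and MLST8 at 3.71. With only the 3920 top-ranked shRRN3 peaks kept, to match the number in shLacZ, the start peaks of the upper group remained and those of RICTOR, RPTOR and MLST8 did not. Of all protein-coding genes, 25.4% had a shRRN3 start peak in the whole list and 10.5% in the reduced one. The number of members with a recorded peak was then 4 in shRRN3, where 15.7% of all genes had one, and 3 in shLacZ, where 13.4% had one. Shared promoters were not unusual among them. Of the 7 members, 3 (AKT1S1, RICTOR and RRAGA) had a start of the opposite strand within 1 kb of the peak midpoint, or 42.9%. The share was 45.5% of all genes with a shRRN3 start peak. These opposite starts were taken at the annotated bound.

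At the edge of the 2 kb flank, the recorded peaks just inside included those 1313 bp before RICTOR and 1582 bp past LAMTOR1, measured from the near edge of the peak. Just outside were shRRN3 peaks 4284 bp before RICTOR (score 57.95) and 4811 bp past LAMTOR1 (score 72.66), the latter with its midpoint 132 bp from the NUMA1 start.

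Distance to the nearest peak gave a value for every gene in both lists. In shLacZ it ran from 11 bp at MLST8 and 34 bp at LAMTOR1 to 1207 kb at RHEB, with a median over members of 82.6 kb beside 230 kb over all protein-coding genes. In shRRN3 it ran from 41 bp at MLST8 to 73.2 kb at RHEB, with a median of 130 bp beside 46.7 kb. The nearest peak came closer in shRRN3 at 8 of the 10 genes, and at 84.3% of all protein-coding genes. The distance was shorter by 78 bp at DEPTOR and by 32.2 kb or more at the other 7, and lay farther off by 30 bp at MLST8 and by 41 bp at LAMTOR1. As to RHEB, 58.4% of genes had a shRRN3 peak as near or nearer.

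**Figure D3:**
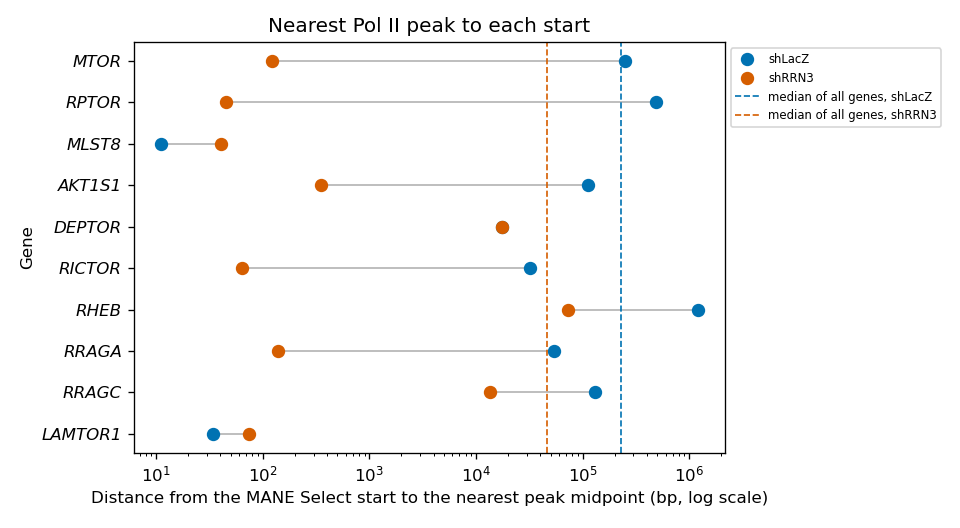
Distance from the MANE Select start of each gene to the nearest peak midpoint in shLacZ (blue) and shRRN3 (orange), in bp on a log axis, with dashed lines for the median over all protein-coding genes in each list. The points of DEPTOR coincide near 17.7 kb, those of MLST8 and LAMTOR1 lie under 100 bp in both lists, and at MTOR, RPTOR, AKT1S1, RICTOR and RRAGA only the shRRN3 point lies under 1 kb.

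The pair of genes with a start peak in both lists could be compared with all start peaks of this kind. Of the shLacZ peaks within 1 kb of a MANE Select start, 1245 were overlapped by a shRRN3 peak. Their median percentile was 59.7 in shLacZ and 85.0 in shRRN3, and 77.4% of them stood higher in shRRN3. LAMTOR1 stood at 63.5 and 84.9, a difference of 21.4 points beside a median difference of 16.5 points. MLST8 stood at 44.7 and 3.71, a difference of -41.0 points, and 2.81% of the shared start peaks had a difference as low or lower. Percentiles of lists that differ in length and whose depth is unknown are not on 1 scale, so such a difference describes a place in each list and not a change in Pol II signal. Both peaks were wider in shRRN3, 1.91 times at LAMTOR1 and 1.20 times at MLST8, beside a median of 1.46 times. Base composition moved with these ranks. Among shared start peaks with a GC share from 70% to 75%, the band of the MLST8 peak (72.3%), 28.0% stood lower in shRRN3, and among those from 50% to 60% the share was 15.6%. The median difference in the MLST8 band was 13.7 points, and the part of base composition in the MLST8 value was not tested. With 1 library per hairpin, neither rank carries a replicate error.

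**Figure D4:**
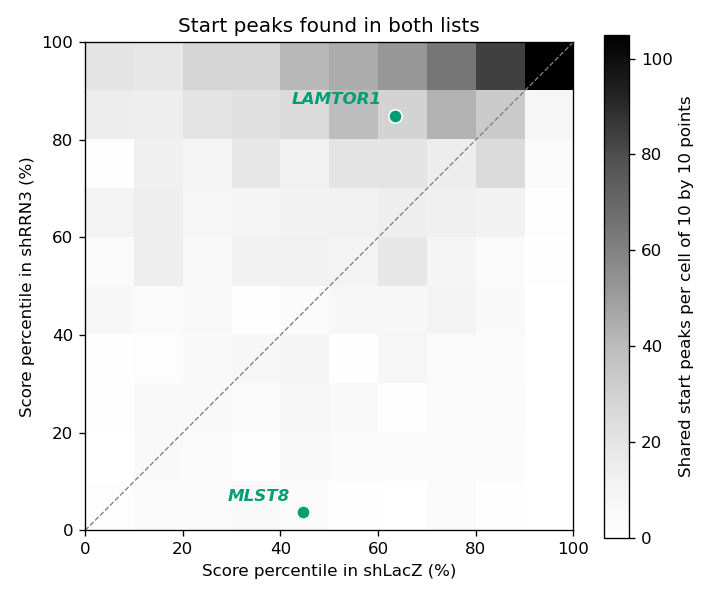
Score percentile in shLacZ (horizontal) and shRRN3 (vertical) of the 1245 start peaks found in both lists, as numbers of peaks in cells of 10 by 10 points, with the dashed line marking equal percentiles. LAMTOR1 lies above the line among the dense cells and MLST8 lies near the lower edge.

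Other genes of the pathway were taken from a list of 44, grouped by complex. Of these, 6 had a peak in the gene or 2 kb around it in shLacZ, or 13.6% beside 13.4% of all genes, and 23 had one in shRRN3, or 52.3% beside 36.9%. With the annotated bound as the start, 3 of them had a start peak in shLacZ, or 6.82% beside 7.56% of all genes, and 14 had one in shRRN3, or 31.8% beside 23.7%. The shLacZ share was thus close to that of all genes. The 3 shLacZ genes were FLCN, SEH1L and TTI2, and all were among the 14.

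FLCN encodes folliculin, which acts on RagC and RagD as a GTPase-activating protein. Its start peaks ranked high in both lists, with a score of 208.94 and rank 224 in shLacZ (chromosome 17, 17237049 to 17237589) and a score of 256.94 and rank 512 in shRRN3 (17237291 to 17237910). Among the start peaks of the 10 members and the 44 genes, this score was the highest in shLacZ, and in shRRN3 only TTI2 scored higher. Another gene model on the same strand (ENSG00000264187) starts 3 bp from FLCN, so these peaks are common to both. The SEH1L peaks, at a gene whose product belongs to both GATOR2 and the nuclear pore, had scores of 73.33 and 76.75 and ranks of 1607 and 6793.

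TTI2, a subunit of the cochaperone that matures mTOR and related kinases, had a start peak of score 161.47 in shLacZ, and the stronger of its 2 start peaks in shRRN3 scored 377.35, with ranks of 343 and 210. The midpoints of these peaks lay 151 bp and 81 bp from the start of the small nucleolar RNA gene SNORD13 and 441 bp and 371 bp from the TTI2 start, so position places them nearer to the noncoding gene. Among the genes with a start peak in shRRN3 alone, the highest percentiles were those of DEPDC5 (84.5), TBC1D7 (77.0) and ITFG2 (74.9). They encode subunits of GATOR1, the TSC complex and KICSTOR, in that order. The TBC1D7 and ITFG2 peaks lay 20 bp and 14 bp from starts of noncoding genes read in the opposite direction, ENSG00000289257 and ITFG2-AS1, and the DEPDC5 peak had no other start within 1 kb.

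The complexes on the lysosome were covered unevenly. Start peaks in shRRN3 were found at the KICSTOR genes ITFG2 and KICS2, at 2 of 3 GATOR1 genes (DEPDC5 and NPRL2), 2 of 3 genes of the FLCN complex (FLCN and FNIP1) and 1 of 5 GATOR2 genes (SEH1L). Of the 6 remaining Rag and Ragulator genes only LAMTOR5 had one (score 80.10, rank 6358), so that LAMTOR1 and LAMTOR5 were the Ragulator subunits with a start peak. The other mTORC2 genes on the list, MAPKAP1, PRR5 and PRR5L, had no start peak. In the gene or 2 kb around it, PRR5L had 8 shRRN3 peaks, MAPKAP1 had 3 and PRR5 had 0. Of the 6 genes grouped as cytosolic sensors, only SESN1, a sestrin, had one. Its midpoint lay 16 bp from the start of a gene read in the opposite direction and 248 bp from the SESN1 start. The midpoint of the NPRL2 peak lay 35 bp and 16 bp from starts of protein-coding genes read in the opposite direction and 82 bp from the NPRL2 start. DDIT4, a stress-induced inhibitor, also had a start peak. Among substrates and upstream kinases, RPS6KB1 had one, and AKT1, PDPK1, RPS6KB2, EIF4EBP1 and EIF4EBP2 had no start peak.

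**Figure D5:**
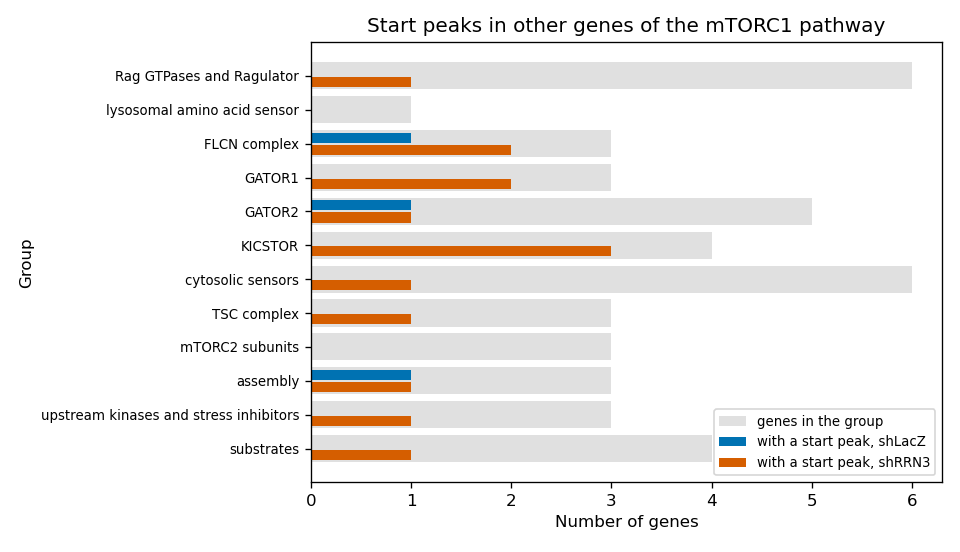
Number of genes in each group of the wider pathway list (grey) and number with a peak midpoint within 1 kb of the annotated bound in shLacZ (blue) and shRRN3 (orange). Start peaks in shLacZ appear in the FLCN, GATOR2 and assembly groups, 1 gene in each, and in shRRN3 in 10 of the 12 groups.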

How the data were processed

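The series holds 4 ChIP-seq samples of SK-OV-3 cells, and the 2 inputs were not analysed here. The peak score is the authors' own, in 1 deposited list per Pol II library. The authors' peak names carry the name MACS, and the labels name the build hg38. The caller's settings, the aligner and the use of the input are not given in the sources used here. Scores, whose scale is not stated, served as ranks within a list. The exception was an alternative setting that cut both lists at the median score of shLacZ.

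Peaks on chromosomes 1 to 22, X and Y were placed on GENCODE release 44, with ranks taken over the whole list. A recorded peak overlapped a gene or its 2 kb flanks by at least 1 bp. A start peak had its midpoint within 1 kb of the start. The percentile of a score is the share of its list that scored lower, with ties counted at their middle. Promoters came from RefSeq. The window code was tested on simulated lists. The members and lists were chosen with earlier results of these data known. All 10 members are named, with the wider genes that had a start peak in shLacZ and the 5 of highest percentile in shRRN3, and further wider genes were named after their values were seen. Some neighbouring and pathway genes are not reported here. Python 3.11.15, numpy 2.4.6 and matplotlib 3.10.9 were used.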

Additional observations from a re-analysis of the deposited data

How the results depend on the processing

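No paired analysis was possible because shLacZ and shRRN3 had 1 peak list each. Of 44 values under alternatives, 35 stayed within 1.5 times the reported count and 9 did not. With scores at or above 66.05, the shLacZ median, 1 member and 1 peak were recorded in shLacZ in place of 3 and 3, where 7.36% of all genes had a recorded peak, since MLST8 and RICTOR scored below it. With shRRN3 reduced to 3920 peaks, it held 4 members with a recorded peak in place of 7 (15.7% of all genes in place of 36.9%), 4 recorded peaks in place of 13 and 5 wider genes with a start peak in place of 14 (9.74% of all genes in place of 23.7%). Members with a start peak in shLacZ became 2 in place of 1, by the addition of MLST8, with a 2 kb window, any transcript start, any overlap or the MANE Select start, where 7.75% to 9.28% of all genes had one in place of 7.56%. The MANE Select start was chosen after the data were seen. A few peaks decide each count, and read depth is unknown.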
